A study of Mus musculus with 21 samples.

Results

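Gene expression in the ventral hypothalamus (VH) was compared between mice that had eaten a high-fat diet (HFD) for many weeks and mice that had eaten it for only 7 days. All 21 libraries of the study came from male C57/BL6 mice (substrain C57BL/6J per the study's methods), aged 12 to 14 weeks when acquired, and each library held equally pooled RNA from the VH punches of 2 mice of 1 condition. HFD NoDS (No Diet Switch) mice ate HFD, with 45% of its calories as fat, for 8 to 10 weeks and stayed on it. RC → HFD mice ate regular chow (RC) for 8 to 10 weeks and were then switched to HFD. Both groups were therefore on HFD when tissue was taken on day 7 after the diet switch (DS), at ZT6 (zeitgeber time, hours after lights on) and after 3 hours of forced wakefulness. The libraries were chosen by these diet labels alone, which gave 5 HFD NoDS and 6 RC → HFD libraries, 11 of the 21. The other 10 libraries (RC NoDS, n = 5, and HFD → RC, n = 5) had the same 2 histories of 8 to 10 weeks but were on RC at collection. The weeks on HFD, body mass and a recent change of diet all differed between HFD NoDS and RC → HFD, and their parts cannot be told apart.

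The VH surrounds the floor of the third ventricle and holds the arcuate nucleus, whose neurons sense leptin, insulin and nutrients and control feeding. Neurons that make AgRP and neuropeptide Y drive feeding, and neurons that make pro-opiomelanocortin (POMC) and CART restrain it. Tanycytes, specialised glia that line the ventricle floor, pass signals between blood, cerebrospinal fluid and these neurons. Astrocytes that react to injury or inflammation raise a recognisable set of genes, among them *Gfap* and *Serpina3n*, in part through the transcription factor STAT3, and glia are also a local source of the complement proteins.

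All 7 arcuate marker genes were measured, and their counts summed to between 12881 and 18642 reads per library in HFD NoDS and between 9560 and 16711 in RC → HFD. The counts had been re-sampled by the authors to a common depth and totalled 16380781 to 16389102 reads in HFD NoDS and 16383705 to 16390551 in RC → HFD, so reads can be set side by side between libraries. The number of distinct molecules behind those reads was less even. Between 7.7% and 32.9% of the genes averaging 5 to 50 reads had a count of 0 in HFD NoDS libraries, and between 2.31% and 22.4% in RC → HFD libraries (exact two-sided permutation test, p = 0.472, adjusted over 10 library measures 0.674). HFD NoDS replicate 20 had the highest share. Libraries of 1 group differed by more than the sampling of reads, and none were identical. The labels state separate pools of mice but not separate cages. By the study's methods, mice were group-housed on arrival and housed singly before the diet switch.

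Of 12768 genes averaging at least 50 reads, 2 were higher in HFD NoDS than in RC → HFD and none were lower at a Benjamini-Hochberg adjusted p under 0.15 (edgeR quasi-likelihood test, 0.0157% of genes). These were *C4b*, a component of the complement cascade, and *Col18a1*, which encodes a collagen of basement membranes. At an unadjusted p under 0.05, 549 genes were higher (4.3% of genes) and 407 lower (3.19%). For 68 genes every HFD NoDS library was above every RC → HFD library (0.533%), and for 27 genes every one was below (0.211%). The number of called genes was 2 with limma-voom and 32 with DESeq2, of which 28 were higher. It was 31 without HFD NoDS replicate 19, 5 without each of RC → HFD replicate 11, RC NoDS replicate 1 and HFD → RC replicates 15 and 16, and 4 without HFD NoDS replicate 21. It was 1 without each of HFD NoDS replicate 23, RC → HFD replicates 7, 8 and 9, HFD → RC replicate 13 and RC NoDS replicate 3.

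*C4b* (ENSMUSG00000073418; NCBIM37 chr17:34865325-34880827, minus strand) was read 1751, 1463, 1745, 2625 and 1100 times in the HFD NoDS libraries. In RC → HFD it ranged from 796 to 964 reads with a median of 850. The groups did not overlap, and HFD NoDS was 1.98-fold higher, with a 95% interval from 1.57 to 2.49 (log2 fold change 0.98 ± 0.156 SE, adjusted p = 0.0103). The call held without each of the 21 libraries in turn, with log2 fold changes from 0.79 to 1.11 and adjusted p of at most 0.0857. *C4b* has a near-identical neighbour, *C4a*, which may share its reads. *C4a*, named here after its values were seen, had 50 to 70 reads in HFD NoDS and 69 to 99 in RC → HFD (log2 fold change −0.56 ± 0.282, adjusted p = 0.685). The reads of *C4a* were few beside those of *C4b* and lay in the opposite direction.

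Other genes of the reactive gliosis list had higher counts in HFD NoDS but did not pass the threshold in the test over all libraries. *Gfap* (NCBIM37 chr11:102748650-102762226, minus strand), the intermediate filament protein that marks astrocytes, had 6183, 8291, 4570, 8797 and 3807 reads in HFD NoDS. In RC → HFD it ranged from 2282 to 3600 with a median of 3285. The groups did not overlap, with a 2.03-fold difference (interval 1.49 to 2.75; log2 fold change 1.02 ± 0.209, adjusted p = 0.159). *Gfap* stood close to the threshold in this fit. With limma-voom (adjusted p = 0.241) or a robust dispersion (0.498) it was not called. Nor was it called with the share of ribosomal reads (0.333) or the number of distinct molecules (0.453) as a covariate. It was called with DESeq2 (adjusted p = 0.0992), library size only (0.143), no filter (0.0641) and only the 2 groups (0.0436), and in 8 of 21 fits with a library left out (HFD NoDS replicates 19, 21 and 24, HFD → RC replicates 14, 15 and 16 and RC NoDS replicates 1 and 6; adjusted p from 0.018 to 0.605 over the 21). *Serpina3n*, a secreted protease inhibitor made by reactive astrocytes, had 4510 to 7239 reads in HFD NoDS and 3071 to 4824 in RC → HFD, and 4 of 5 HFD NoDS libraries exceeded every RC → HFD library (log2 fold change 0.61 ± 0.135, adjusted p = 0.25). It was called with DESeq2 and no filter (adjusted p = 0.115 in each), with only the 2 groups (0.0436) and without each of HFD NoDS replicates 19 and 20, HFD → RC replicates 15 and 16 and RC → HFD replicate 11 (0.0945 to 0.656 over the 21 libraries). *Serpina3n* was not called with limma-voom (adjusted p = 0.207), a robust dispersion (0.49) or the number of distinct molecules as a covariate (0.494). *Stat3* itself had 3967, 3636, 3839, 4195 and 3571 reads in HFD NoDS against 2840 to 3475 in RC → HFD, a narrow difference of 1.21-fold without overlap (interval 1.09 to 1.34; adjusted p = 0.354). *Sbno2*, a transcriptional co-regulator downstream of STAT3, had 514 to 655 reads against 372 to 465, again without overlap (log2 fold change 0.49 ± 0.126, adjusted p = 0.38). DESeq2 called both (adjusted p = 0.0972 for *Stat3* and 0.121 for *Sbno2*), and edgeR with a robust dispersion called neither (0.439 and 0.468).

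**Figure D1:**
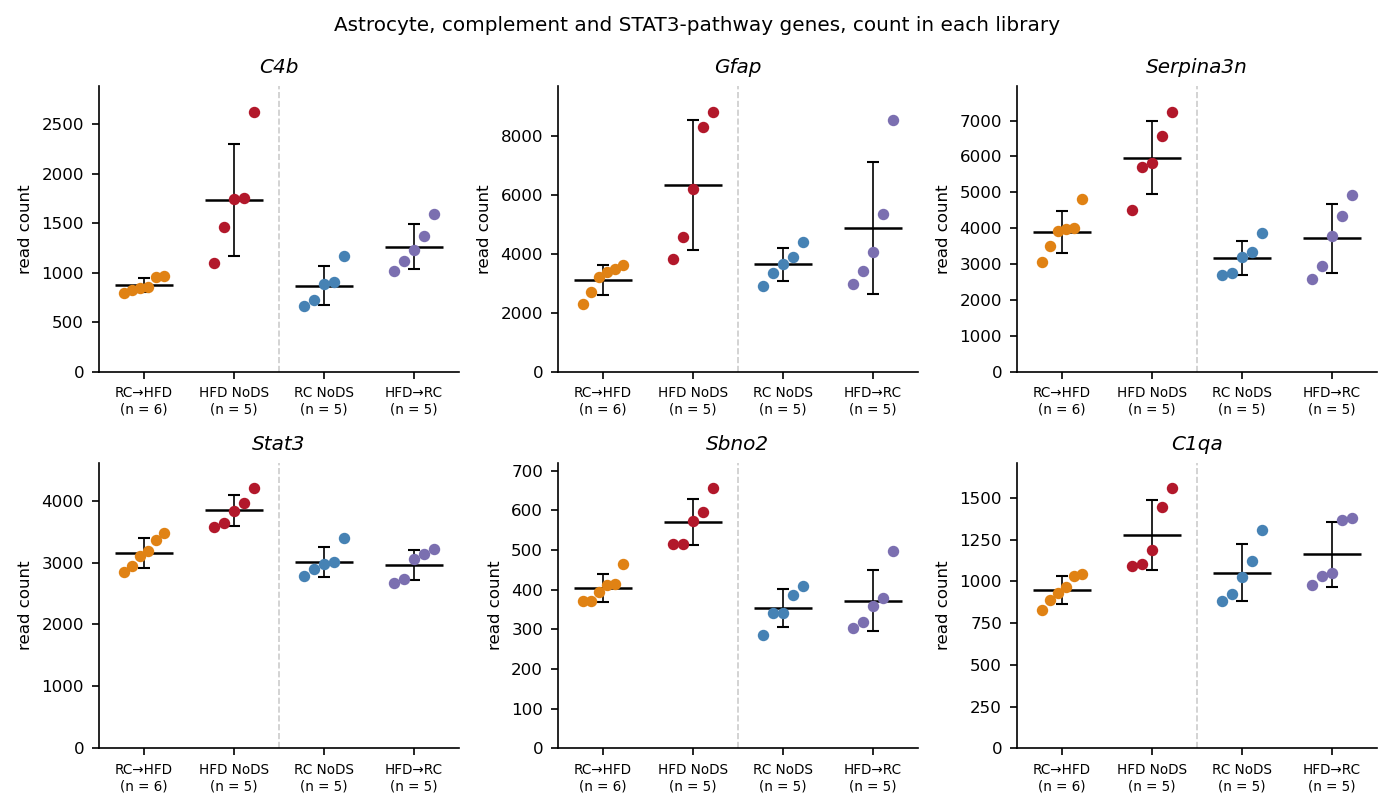
Read counts (vertical axes, starting at 0) of 6 genes in every library of the 4 groups. Points are libraries, horizontal bars are means and error bars are SDs. For *C4b*, *Gfap*, *Stat3*, *Sbno2* and *C1qa* the 5 HFD NoDS points lie above all 6 RC → HFD points, and *Serpina3n* overlaps by 1 HFD NoDS library.

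Across the whole list of 29 reactive gliosis genes, 22 were tested, and 19 of these were higher in HFD NoDS. Of the 22, 11 were higher at an unadjusted p under 0.05, where 4.3% of all genes were, and none were lower. The 22 genes had a median log2 fold change of 0.32, against −0.001 over all genes tested. Against RC NoDS, 12 of the 22 were lower in RC → HFD (median −0.13) and 20 were higher in HFD NoDS (0.23). For 4 of the 22 every HFD NoDS library lay above every RC → HFD library, which held for 0.533% of all genes. The 9 tested complement genes had a median of 0.34, and 6 were higher at an unadjusted p under 0.05. This list shares genes with the gliosis list, *C4b* and *Serping1* among them, so the lists are not independent. *C1qa*, a chain of the C1q complex that starts the classical cascade in which C4 acts, had 1105, 1445, 1188, 1557 and 1093 reads in HFD NoDS and 829 to 1043 in RC → HFD (log2 fold change 0.42 ± 0.117, adjusted p = 0.435). A second C1q chain, *C1qc*, had 996 to 1348 reads against 792 to 1054 (0.34 ± 0.111, adjusted p = 0.498). *Serping1*, the inhibitor of C1, had 145, 655, 298, 496 and 406 reads in HFD NoDS and 105 to 245 in RC → HFD (1.15 ± 0.309, adjusted p = 0.41), so that HFD NoDS replicate 19 lay within the RC → HFD range. Since tissue was measured in bulk, more cells of a type and more RNA per cell cannot be told apart.

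Of 11 tested microglial markers, 10 were higher in HFD NoDS, with a median log2 fold change of 0.15. The difference was small for *Ctss*, a lysosomal protease of microglia, with 1777 to 2141 reads against 1561 to 1857 (log2 fold change 0.20 ± 0.0759, adjusted p = 0.557). It was also small for *Csf1r*, the receptor on which microglia depend, with 1620 to 2138 reads against 1398 to 1670 (0.19 ± 0.0817, adjusted p = 0.614). *Lyz2*, which encodes the lysozyme of myeloid cells and was picked after its values were seen, had 216, 445, 374, 437 and 390 reads against 112 to 260 (0.99 ± 0.208, adjusted p = 0.165). The 18 tested genes of NF-kB and Toll-like receptor signalling, the classical inflammatory route, had a median of 0.08, with 14 higher and 4 lower. None of them reached an unadjusted p under 0.05, and 9 of the 27 on that list, among them the cytokine genes *Tnf*, *Il1b* and *Il6*, averaged under 50 reads and were not tested. Astrocyte markers as a list were not higher, at 5 of 12 with a median of −0.02. Among them *Slc1a2*, the main glutamate transporter of astrocytes, had 12355 to 14809 reads in HFD NoDS and 14002 to 16957 in RC → HFD (−0.22 ± 0.0684, adjusted p = 0.49). *Gfap* was the only one of the 12 that was higher at an unadjusted p under 0.05.

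Because STAT3 binds the sequence TTCNNNGAA, which reads the same on both strands, promoter windows from 250 bases before to 50 after the start (RefSeq, GRCm38.p6) were searched for it. It occurred in 8.3% of all 32851 windows and in those of 9.55% of genes. Among tested genes alone, it occurred in 6.65% of 11796 windows and in those of 8.13% of genes. Of the 22 tested gliosis genes, 18 had a window and 4 of these (*Gfap*, *Sbno2*, *Emp1* and *Psmb8*) held a match. *C4b* and *Serping1* had no window in the table. The stretches of *Gfap* and of 2 starts of *Sbno2* are shown from 100 bases before the start to 20 after, with the match in capitals, beside that of *Serpina3n*, whose window held none. A match in these letters is a description and not evidence of binding.
*Gfap*, chr11:102897181-102897300, minus strand: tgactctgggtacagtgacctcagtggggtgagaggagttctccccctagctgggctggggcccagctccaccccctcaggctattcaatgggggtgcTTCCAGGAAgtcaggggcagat
*Sbno2*, chr10:80102683-80102802, minus strand: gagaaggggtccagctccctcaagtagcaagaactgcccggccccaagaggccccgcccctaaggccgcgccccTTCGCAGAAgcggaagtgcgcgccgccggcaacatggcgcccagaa
*Sbno2*, chr10:80101168-80101287, minus strand: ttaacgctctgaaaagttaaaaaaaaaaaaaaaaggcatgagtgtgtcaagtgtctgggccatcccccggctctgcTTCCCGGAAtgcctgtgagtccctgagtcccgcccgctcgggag
*Serpina3n*, chr12:104406608-104406727, plus strand: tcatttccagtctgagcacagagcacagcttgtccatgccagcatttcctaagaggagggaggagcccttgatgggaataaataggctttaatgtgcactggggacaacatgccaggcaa
In *Gfap* the match began 2 bases before the annotated start, and in the *Sbno2* windows shown it began 26 and 24 bases before. Another annotated start of *Sbno2*, not shown, had no match in its window.

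*Col18a1* (ENSMUSG00000001435; NCBIM37 chr10:76514923-76629293, minus strand) was the other called gene. Its counts in HFD NoDS were 565, 675, 489, 549 and 444. In RC → HFD they ranged from 267 to 366 with a median of 306, again without overlap. HFD NoDS was 1.71-fold higher, with an interval from 1.37 to 2.14 (log2 fold change 0.78 ± 0.151, adjusted p = 0.12). The end of *Col18a1* overlaps *Slc19a1* on the other strand, and whether the authors counted by strand is not given in the sources used here. The call was lost without HFD NoDS replicate 20 (adjusted p = 0.438) or 23 (0.241), without RC → HFD replicate 7 (0.154), 8 (0.473), 9 (0.304) or 12 (0.235), without HFD → RC replicate 13 (0.171) and without RC NoDS replicate 3 (0.153).

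Other genes of the extracellular matrix lay in the same direction. Of 40 tested collagen and basement membrane genes, 31 were higher in HFD NoDS. At an unadjusted p under 0.05, 17 were higher and 2 lower, where 4.3% and 3.19% of all genes were. The median of the 40 log2 fold changes was 0.37. Against RC NoDS, 32 of the 40 were lower in RC → HFD (median −0.16) and 26 were higher in HFD NoDS (0.13). *Fn1*, fibronectin, had 592, 1608, 1123, 1672 and 994 reads in HFD NoDS and 445 to 777 in RC → HFD (0.94 ± 0.223, adjusted p = 0.312). *Col6a2*, a chain of collagen VI, had 166, 779, 296, 524 and 401 reads against 163 to 238 (1.06 ± 0.268, adjusted p = 0.354). *Smoc2*, a secreted calcium-binding matrix protein, had 108, 296, 167, 160 and 169 reads against 42 to 123 (1.28 ± 0.33, adjusted p = 0.38). In all 3 genes HFD NoDS replicate 19 lay within the RC → HFD range, and the other 4 libraries lay above it.

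Markers of meningeal fibroblasts, the matrix-making cells of the brain's surface membranes, moved with these genes. All 6 that were tested were higher in HFD NoDS, with a median log2 fold change of 1.04. Of these, 5 were higher at an unadjusted p under 0.05, where 4.3% of all genes were. *Col3a1*, a fibrillar collagen, had 71, 397, 151, 186 and 150 reads in HFD NoDS and 51 to 104 in RC → HFD (1.40 ± 0.426, adjusted p = 0.477). *Dcn*, which encodes the proteoglycan decorin, had 136, 915, 986, 1013 and 1158 reads against 226 to 769 (0.95 ± 0.402, adjusted p = 0.61). The 7 markers together took 71.5 to 463 CPM (counts scaled to the library total) in HFD NoDS and 67.8 to 197 in RC → HFD (exact permutation p = 0.0476, adjusted over 10 library measures 0.238), and none was at 0 throughout. RC NoDS libraries held 119 to 390 CPM and HFD → RC libraries 47.8 to 275. With the sum of these markers added to the model as a covariate, an alternative chosen after the data were seen, the log2 fold change of *C4b* was 0.94 (adjusted p = 0.0544), that of *Gfap* 0.84 (adjusted p = 0.766) and that of *Col18a1* 0.76 (adjusted p = 0.504). That of *Fn1* was 0.49 and that of *Smoc2* 0.86. The median of the matrix list under the same covariate was 0.13, but 4 of its 40 genes are themselves fibroblast markers, *Dcn* and *Col3a1* among them. Without these 4 the median of the other 36 was 0.30 without the covariate and 0.086 under the covariate. The gliosis list, which holds none of the markers, had a median of 0.20 under it.

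**Figure D2:**
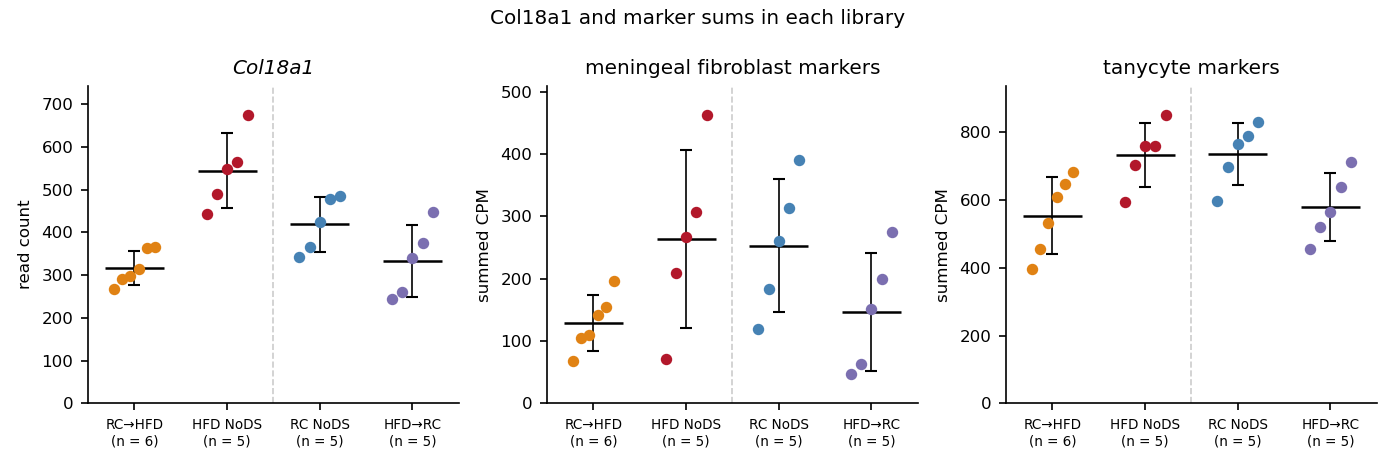
Read count of *Col18a1* (left) and summed CPM of 7 meningeal fibroblast markers (middle) and 10 tanycyte markers (right) in every library, with the mean and SD of each group. The *Col18a1* counts of HFD NoDS, 444 to 675, lie above the 267 to 366 of RC → HFD, and the marker sums of the groups overlap.

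Tanycyte markers were also higher in HFD NoDS in all 10 genes, with a median log2 fold change of 0.41. Of these, 7 were higher at an unadjusted p under 0.05, where 4.3% of all genes were. *Crym*, which encodes a thyroid hormone-binding protein, had 563 to 724 reads in HFD NoDS and 205 to 618 in RC → HFD (0.64 ± 0.175, adjusted p = 0.432). *Dio2*, the deiodinase that activates thyroid hormone, had 352 to 549 reads against 198 to 378 (0.71 ± 0.2, adjusted p = 0.439). *Vim*, an intermediate filament of tanycytes and reactive astrocytes alike, had 1625 to 2272 reads against 1366 to 1754 (0.26 ± 0.0906, adjusted p = 0.51). The 10 markers summed to 594 to 852 CPM in HFD NoDS and 396 to 683 in RC → HFD (exact permutation p = 0.0238, adjusted 0.238). In RC NoDS they summed to 598 to 830 CPM. The range of HFD NoDS thus overlapped that of RC NoDS almost entirely, and RC → HFD reached lower. Their part in the other differences was not tested.

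Blood markers (5 tested) had a median log2 fold change of 0.63 and took 94.6 to 266 CPM in HFD NoDS against 65.2 to 129 in RC → HFD (exact permutation p = 0.167, adjusted 0.556). Pituitary hormone genes were high in RC → HFD replicate 12, where *Prl* (prolactin) had 841 reads and *Gh* (growth hormone) 480, while every HFD NoDS library had at most 10 and 1. Pituitary markers as a whole took 2.99 to 118 CPM in RC → HFD and 3.17 to 51.7 in HFD NoDS. Without that library the log2 fold change of *C4b* was 0.96 and that of *Gfap* 1.05. The parts of blood and pituitary in the other differences were not tested.

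Neuropeptide genes of the feeding circuit mostly showed small differences between long and 7-day HFD. *Npy* had 1551 to 2638 reads in HFD NoDS and 1390 to 2295 in RC → HFD (log2 fold change 0.05 ± 0.152, interval of the fold change 0.829 to 1.29, adjusted p = 0.967). *Agrp* had 426 to 902 reads against 426 to 629 (0.27 ± 0.189, interval 0.917 to 1.6, adjusted p = 0.768). *Pomc* had 7815 to 11836 reads against 5919 to 11263 (−0.03 ± 0.169, interval 0.765 to 1.25, adjusted p = 0.979). In RC NoDS, *Npy* had 4258 to 5713 reads and *Agrp* 1139 to 1442, above every library of both HFD groups. Against RC NoDS, which both HFD groups share as reference, *Npy* changed by −1.26 on the log2 scale in HFD NoDS and −1.31 in RC → HFD, and both comparisons passed the threshold (adjusted p = 7.79e-05 and 2.36e-05; 0.0783% and 0.0392% of all genes were called in them).

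*Cartpt*, which encodes the CART peptide, had 5221, 4823, 5332, 6161 and 5593 reads in HFD NoDS and 2943 to 4729 in RC → HFD, without overlap (log2 fold change 0.46 ± 0.124, interval of the fold change 1.15 to 1.65, adjusted p = 0.41). *Trh*, thyrotropin-releasing hormone, had 1741, 2613, 2258, 1863 and 1737 reads against 999 to 2047 with a median of 1094 (0.66 ± 0.153, adjusted p = 0.312). The value of 2047 was that of RC → HFD replicate 12, and without that library the log2 fold change was 0.86 and the gene was called (adjusted p = 0.00423). *Trh* was called in 2 of the 21 fits with a library left out. Its log2 fold changes there ranged from 0.55 to 0.86 and its adjusted p from 0.00423 to 0.584 (edgeR). Levels of *Trh* in RC NoDS were 464 to 683 reads, below every library of the other groups. *Hcrt*, the orexin precursor of the lateral hypothalamus, varied from 93 to 1051 reads among HFD NoDS libraries and from 58 to 355 among RC → HFD libraries (1.24 ± 0.492, adjusted p = 0.581). Among all 20 tested feeding peptides 12 were higher, with a median of 0.06. At an unadjusted p under 0.05, 3 were higher, where 4.3% of all genes were. None of the 20 tested receptors of feeding signals reached an unadjusted p under 0.05, and their median was −0.02.

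**Figure D3:**
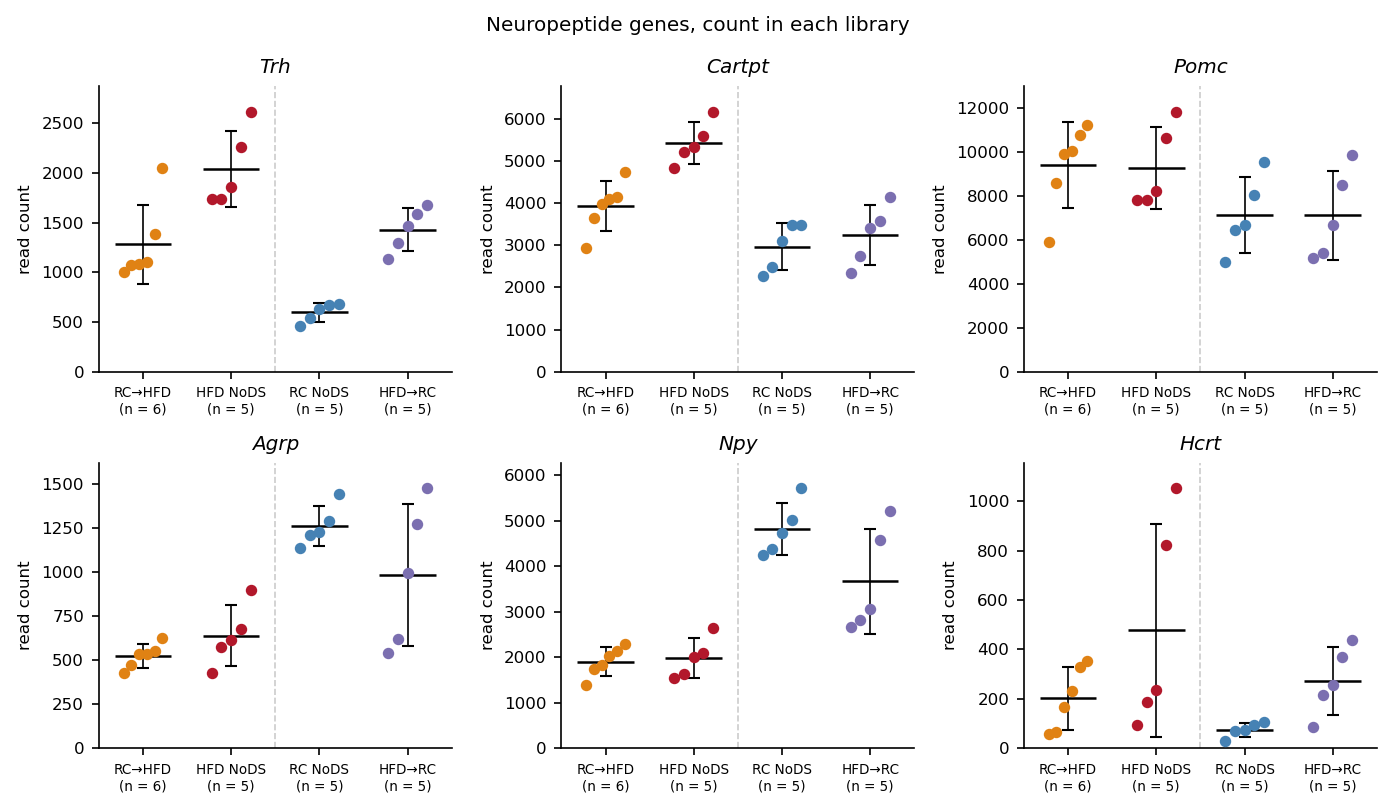
Read counts of 6 neuropeptide genes in every library, drawn as points with the mean and SD of each group. *Npy* and *Agrp* lie at like levels in RC → HFD and HFD NoDS, both below RC NoDS, while the *Cartpt* counts of HFD NoDS (4823 to 6161) lie above those of RC → HFD (2943 to 4729).

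Signalling genes downstream of leptin and insulin had small median differences as lists. Of 18 tested leptin and JAK-STAT genes, 11 were higher in HFD NoDS (median log2 fold change 0.07). At an unadjusted p under 0.05, 4 were higher and 1 lower, where 4.3% and 3.19% of all genes were. *Cntfr*, the receptor for ciliary neurotrophic factor, had 1842 to 2184 reads against 1569 to 1823, without overlap (0.23 ± 0.0826, adjusted p = 0.528). *Jak2*, the kinase bound to the leptin receptor, had 476 to 768 reads against 566 to 910 (−0.34 ± 0.132, adjusted p = 0.569). Of 21 tested insulin and IGF genes, 15 were higher, with a median of 0.08. At an unadjusted p under 0.05, 5 were higher, where 4.3% of all genes were. *Irs2*, an adaptor of the insulin receptor, had 1619 to 1874 reads in HFD NoDS and 1354 to 1593 in RC → HFD, without overlap (0.26 ± 0.103, adjusted p = 0.592).

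Neuronal receptor genes lay the other way. Of 15 tested GABA receptor genes, 14 were lower in HFD NoDS (median log2 fold change −0.22), and 2 were lower at an unadjusted p under 0.05, where 3.19% of all genes were. Of 7 general neuron markers, 5 were lower with a median of −0.11, 2 of them at an unadjusted p under 0.05, and their part in these lists was not tested. Of 24 glutamate receptor genes, 18 were lower with a median of −0.13. *Gria1*, an AMPA receptor subunit, had 10356, 9937, 10576, 9640 and 10400 reads in HFD NoDS and 10760 to 11752 in RC → HFD, without overlap (−0.17 ± 0.0565, adjusted p = 0.498). Of 67 potassium channel genes, 45 were lower with a median of −0.08. The lower gene without overlap that had the smallest p was *Pgm2l1*, which makes glucose-1,6-bisphosphate in neurons, with 1178, 932, 1404, 1165 and 1368 reads against 1466 to 1793 (−0.42 ± 0.1, adjusted p = 0.347).

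Genes of the cytosolic ribosome differed little but in 1 direction. Of 77 tested, 73 were higher in HFD NoDS (median log2 fold change 0.09). At an unadjusted p under 0.05, 12 were higher, where 4.3% of all genes were. Against RC NoDS, 74 of the 77 were lower in RC → HFD (median −0.12) and 52 were lower in HFD NoDS (−0.03). The 75 genes of oxidative phosphorylation had a median of 0.02, with 41 higher. All 10 oligodendrocyte markers were higher with a median of 0.33, and none reached an unadjusted p under 0.05.

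Other genes without overlap that stood high by p came from no common list. *Vamp8*, a SNARE protein of vesicle fusion, had 222 to 439 reads in HFD NoDS and 142 to 190 in RC → HFD (0.81 ± 0.198, adjusted p = 0.354). *Scara3*, a scavenger receptor, had 263 to 646 reads against 165 to 228 (0.91 ± 0.228, adjusted p = 0.354). *1110038F14Rik* had 320 to 414 reads against 220 to 307 (0.55 ± 0.138, adjusted p = 0.354). *Mest*, an imprinted gene linked to fat cell size, had 812 to 1099 reads against 378 to 719 (0.53 ± 0.142, adjusted p = 0.41). Of genes named by the study for other comparisons, *Rbm3*, a cold-inducible RNA-binding protein, had 716 to 827 reads against 533 to 684 without overlap (0.31 ± 0.103, adjusted p = 0.498). *Atxn7l2*, related to a subunit of the SAGA complex, had 443 to 488 reads against 356 to 427 without overlap (0.28 ± 0.105, adjusted p = 0.545). *Clu* and *Kif5a* were taken from earlier results of these data. *Clu*, the secreted chaperone clusterin, had 15716 to 18773 reads against 14412 to 16621 (0.13 ± 0.0567, adjusted p = 0.636). *Kif5a*, a kinesin motor of axons, had 28882 to 36193 reads against 30455 to 38574 (−0.10 ± 0.0849, adjusted p = 0.827).

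The same earlier diets could be compared in mice that were on RC at collection, HFD → RC against RC NoDS, which share no library with the HFD comparison. There 36 genes were called (0.282%), 32 of them higher after earlier HFD. This count rested on single libraries. It was 1 without each of HFD → RC replicates 13 and 14 and RC NoDS replicates 1, 2 and 5, 2 without HFD → RC replicate 15 and 23 without RC → HFD replicate 7. It was 205 without HFD → RC replicate 16, 145 without HFD NoDS replicate 20, 76 without RC → HFD replicate 12 and 67 without RC NoDS replicate 6. *C4b* had 1230, 1593, 1116, 1369 and 1019 reads in HFD → RC and 661 to 1171 in RC NoDS (log2 fold change 0.56 ± 0.164, adjusted p = 0.212). *Gfap* had 2987 to 8518 reads against 2891 to 4393 (0.45 ± 0.219, adjusted p = 0.622). The values of *Stat3* were 2661 to 3213 against 2776 to 3403 (0.00, adjusted p = 0.999). *Col18a1* lay the other way on RC, with 244 to 448 reads in HFD → RC and 342 to 484 in RC NoDS (−0.30 ± 0.159, adjusted p = 0.653). *Trh* was called on RC, at 1138 to 1673 reads against 464 to 683 (1.28 ± 0.166, adjusted p = 0.000239).

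The gliosis list had a median of 0.03 on RC against 0.32 on HFD, and the complement list 0.17 against 0.34. The matrix list had −0.24 on RC against 0.37 on HFD, the meningeal fibroblast list −0.70 against 1.04 and the tanycyte list −0.28 against 0.41. Against RC NoDS, the fibroblast list had −0.91 in RC → HFD and 0.18 in HFD NoDS, and the tanycyte list −0.44 and 0.005. Oligodendrocyte markers were higher in both earlier-diet comparisons, with 0.78 on RC and 0.33 on HFD. Over all 12768 genes the 2 sets of log2 fold changes had a Pearson correlation of −0.151 (Spearman −0.0416), a value across genes that are not independent. Of the 549 genes higher on HFD at an unadjusted p under 0.05, 232 (42.3%) were also higher on RC, against 50% of all genes. Of the 68 genes higher on HFD without overlap, 41 (60.3%) were higher on RC, so the share depended on how the genes were chosen. The difference between the 2 comparisons is, by its terms, also the 2 unswitched groups against the 2 switched groups. An earlier diet acting differently by current diet and an effect of the switch cannot be told apart in it. A test of this difference called 4 genes (0.0313%), each at an adjusted p of 0.145. None were left with RLE size factors (1128 genes at an unadjusted p under 0.05) or a filter of 5 reads (1296). None were left either without each of HFD NoDS replicates 21, 23 and 24, RC → HFD replicates 7, 8, 11 and 12, RC NoDS replicates 1, 5 and 6 and HFD → RC replicates 13, 15 and 17 (edgeR, 934 to 1213 genes at an unadjusted p under 0.05 in these 13 fits), while DESeq2 called 116 and limma-voom 15 with all libraries. The count was 103 and 124 without HFD NoDS replicates 19 and 20, 44 and 9 without HFD → RC replicates 14 and 16, 22 without RC NoDS replicate 3, and 20 and 7 without RC → HFD replicates 10 and 9. *Col18a1* and *Slc12a7*, a potassium-chloride cotransporter, differed upwards on HFD relative to RC, by 1.08 and 0.95 on the log2 scale. *Plcxd2*, which has a phospholipase C domain, and *Tppp*, a tubulin-binding protein of oligodendrocytes, differed by −0.66 and −0.51.

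**Figure D4:**
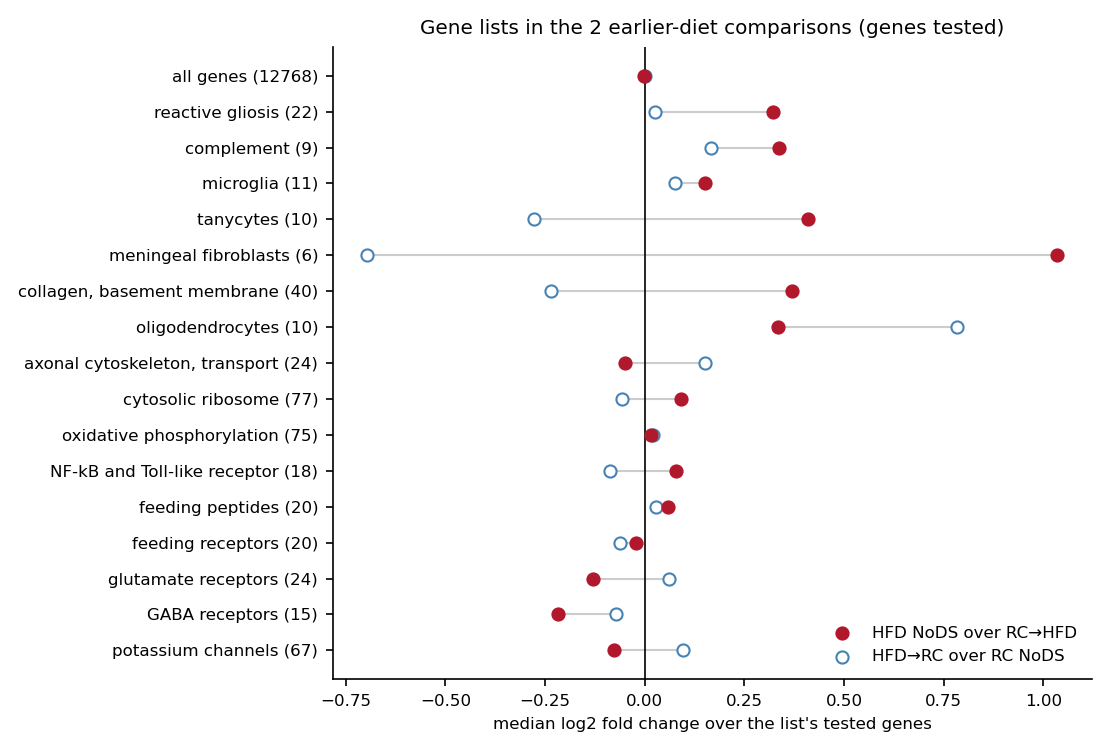
Median log2 fold change over the tested genes of each list (number in brackets) for HFD NoDS over RC → HFD (filled red) and for HFD → RC over RC NoDS (open blue). Meningeal fibroblast, tanycyte and matrix lists lie on opposite sides of 0 in the 2 comparisons, reactive gliosis and complement lie to the right on HFD (0.32 and 0.34), and the median of all genes is at 0.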

How the data were processed

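RNA of VH punches from 2 mice was pooled per library, poly(A)-selected with a stranded kit and sequenced as 100 bp single-end reads. The submitters' processing notes name STAR 2.5.1b, Picard 2.7.1 and the mm9 (NCBIM37) genome. The authors removed ribosomal and mitochondrial reads and used PORT to re-sample the libraries to an equal depth, and deposited whole-number read counts per Ensembl gene for 21 libraries. Totals were 16380781 to 16390598. Reads are not independent molecules, so depth covers sampling of reads only. Whether counting used strand is not given in the sources used here.

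Genes with a mean of 50 reads or more were tested with edgeR 4.0.16 (TMM, quasi-likelihood, 4 group means, all 21 libraries) in R 4.3.3. P-values were Benjamini-Hochberg adjusted over 12768 genes with a threshold of 0.15, and intervals are 95% with 17 residual degrees of freedom. P-values set the group difference against the spread between libraries. Each library is a pool of 2 mice, so the spread between single mice was not measured. Library measures were tested with exact two-sided permutation tests over 462 labelings (smallest p 0.00216). Meningeal fibroblast and tanycyte shares were added to those measures after the data were seen.

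Gene lists were described by counts and medians. The comparison, the lists and the genes were chosen with earlier results of these data known. Genes named are those called, the next 10 by p without overlap, 16 named by the study or earlier results, up to 4 per list with the smallest p and those called in the test of the difference between comparisons. *Tnf*, *Il1b*, *Il6*, *Emp1*, *Psmb8*, *C4a* and *Lyz2* were named outside this rule. Some genes that the rule names are not reported here.

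Alternatives were DESeq2 1.42.0, limma-voom (limma 3.58.1), other scalings, filters and covariates, only the 2 groups, a robust dispersion and each library left out. On data simulated for this comparison, edgeR recovered 71 of 100 genes changed 1.5-fold and 90 of 100 changed 2-fold among 12768 genes, with 28 false calls. The simulated counts were drawn gene by gene, without shifts shared between genes, and many genes were changed at once. The adjusted threshold was therefore easier to pass than in the real data, where 2 genes were called. These shares do not give the power of the real comparison. Figures used matplotlib 3.10.9 (Python 3.11.15).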

Additional observations from a re-analysis of the deposited data

Results flagged for a closer look

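Among 120 genes and library measures in the 2 groups, 240 sets of 5 or 6 libraries were searched for a single library far from the rest by Dixon's 95% criterion, which chance alone meets in about 1 in 20 sets, and 16 met it. In RC → HFD replicate 12, *Trh* (2047 reads, others 999 to 1385), *Eci1*, an enzyme of fatty acid oxidation (583, others 335 to 426), *Prl* (841, others 0 to 65) and *Gh* (480, others 0 to 37) were high. *Mest* (378, others 640 to 719) and the share of choroid plexus markers (64.3 CPM, others 79.8 to 85.1) were low there. In HFD NoDS replicate 20, *Scara3* (646, others 263 to 365), *Edem1*, which helps degrade misfolded glycoproteins (589, others 316 to 381), and *Cox4i1*, a subunit of cytochrome c oxidase (8285, others 6631 to 6794), were high. HFD NoDS replicate 19 was low for *Dcn* (136, others 915 to 1158) and for *Ndufa1*, a subunit of respiratory complex I (820, others 970 to 1008). HFD NoDS replicate 21 had 10 reads of *Prl*, where the others had 0 to 1. HFD NoDS replicate 24 was low for *Mcm5*, a DNA replication factor (43, others 79 to 91). RC → HFD replicate 8 was high for *Plcxd2* (2421, others 1962 to 2102) and low for *Gpr17*, a receptor of oligodendrocyte precursors (1236, others 1451 to 1514). RC → HFD replicate 11 was high for *Rplp0*, a ribosomal stalk protein (4178, others 3588 to 3797).

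The earlier diet had a different log2 fold change on HFD than on RC for 4 genes, each at an adjusted p of 0.145 (edgeR), and for none in 13 of 21 fits with a library left out (934 to 1213 genes at an unadjusted p under 0.05 there; 116 genes called by DESeq2 and 15 by limma-voom with all libraries). The difference was 1.08 for *Col18a1*, 0.95 for *Slc12a7*, −0.51 for *Tppp* and −0.66 for *Plcxd2*. The same contrast sets the unswitched groups against the switched groups, so a part of the earlier diet and a part of the switch cannot be told apart.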

How the results depend on the processing

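The number of genes called between HFD NoDS and RC → HFD, 2, was 32 with DESeq2, 5 with no filter, 4 with only the 2 groups, and 1 with a filter of 5 reads or with molecules, ribosomal share or fibroblast markers as a covariate. It ranged from 1 to 31 with each library left out, and *C4b* was called in all of these settings. Leaving out the 4 libraries of lowest complexity together gave 2 calls, *C4b* and *Trh*. The 36 genes between HFD → RC and RC NoDS were 147 with DESeq2, 7 with limma-voom, 10 with library size only, 1 with molecules and 129 with fibroblast markers as a covariate and 104 without the 4 libraries, and ranged from 1 to 205 with each library left out. The 4 genes whose comparisons differed were 116 with DESeq2, 15 with limma-voom, 2 with library size only, 11 with molecules and 91 with ribosomal share as a covariate and 250 without the 4 libraries. They were 0 with RLE size factors (1128 genes at an unadjusted p under 0.05), a filter of 5 reads (1296) or fibroblast markers as a covariate (929), and ranged from 0 to 124 with each library left out. The causes were not tested. DESeq2 gave 1 gene no adjusted p in each of the 3 comparisons. The fibroblast covariate and the removal of 4 libraries were chosen after the data were seen.

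With fibroblast markers as a covariate the log2 fold changes of *Igfbp2* (−0.0917), *Dcn* (−0.0185), *Agrp* (−0.0236) and *Npy* (−0.0512) changed sign (*Dcn* is part of that covariate), and that of *Npy* was −0.0012 with molecules as a covariate. With each library left out, *Npy* ranged from −0.0704 to 0.12 and *Pomc* from −0.13 to 0.0284. HFD NoDS minus RC → HFD ranged from −0.0171 to 0.02 percentage points for the share of the 10 most abundant genes, from −22.2 to 0.771 CPM for pituitary markers and from −18.1 to 6.93 CPM for lateral hypothalamus markers. No paired analysis was possible because the labels give separate pools of mice and no link between libraries of different groups. Depth limits genes under about 50 reads, cytokines among them.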

Other observations

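Other lists, with no called gene, had these values between HFD NoDS and RC → HFD. Over all genes tested, 4.3% were higher and 3.19% lower at an unadjusted p under 0.05. Of 17 tested hypophysiotropic and magnocellular hormone genes, 13 were higher in HFD NoDS (median log2 fold change 0.15), and 1 reached an unadjusted p under 0.05. All 4 ventromedial markers were lower with a median of −0.28, and 1 reached it. Their counts summed to 4107 to 7997 reads in HFD NoDS and 5861 to 8269 in RC → HFD. Of 17 interferon-response genes 13 were higher (median 0.22, 2 at an unadjusted p under 0.05), and of 22 immediate early genes, which neurons induce on activation, 15 were higher (0.14, 3). Of 24 genes of cholesterol synthesis 17 were lower (−0.06, 2), and of 24 genes of the axonal cytoskeleton and transport 20 were lower (−0.05, 3). The 22 heat shock genes had a median of 0.02 and the 24 genes of the endoplasmic reticulum stress response one of −0.01, with 0 and 1 at an unadjusted p under 0.05 by edgeR.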
